A study of Mus musculus with 18 samples.

Results

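The genes described here encode voltage-gated ion channels and their close relatives. They were chosen by a rule on the symbol: every gene whose symbol starts with Kcn and ends in a family letter and a number, every Scn gene ending in a or b, every Cacna, Cacnb and Cacng gene, and every Hcn gene. This gave 136 of the 54307 genes in the deposited table. The potassium class has 92 members, of which 40 form voltage-gated pores, 15 inward rectifiers, 14 2-pore leak channels and 8 channels opened by calcium or sodium, while 15 are auxiliary subunits. The sodium class has 14 members (10 pores, 4 beta subunits), the calcium class 26 (10 pores, 4 alpha2delta, 4 beta and 8 gamma subunits) and the HCN class 4. The name voltage-gated is therefore wider than the biology, since inward rectifiers, leak channels and auxiliary subunits do not sense voltage themselves.

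Poly(A) RNA was sequenced from 3 kinds of primary mouse brain culture (astrocyte, microglia, neuron) and from the membrane particles they shed, here called sEVs for small extracellular vesicles, to compare which messenger RNAs go into the vesicles of each cell type. Per the labels the cell RNA came from part of the cells that gave the sEVs. There were 6 groups of 3 libraries: astrocyte cells, astrocyte sEVs, microglia cells, microglia sEVs, neuron cells and neuron sEVs. No strain, age, genotype or treatment is given for any group, and the cultures are primary cells without a cell line. Whether the 3 replicates came from separate cultures is not stated, so all p-values measure the spread between these samples, which may be technical.

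Values are the authors' normalized counts, which added up to 36947428 to 69276566 per library. Read numbers were not recoverable from these values, so the depth behind each is unknown. Marker genes of the labelled type led in the cells of each culture, but not alone. Sums of genes are given per 1000000 normalized counts of the library (CPM). Microglia markers summed to 4276 to 4425 CPM in microglia cells and to at most 129 in the other cells. In microglia cells astrocyte markers reached 61.6 to 237 CPM, fibroblast and meningeal markers 4.46 to 217 and neuron markers 1.72 to 4.62. All channel members together summed to 62.8 to 68.4 CPM there. Astrocyte markers reached 24760 to 26276 CPM in astrocyte cells and 3102 to 3498 in neuron cells. Oligodendrocyte-lineage markers reached 5289 to 10980 in astrocyte cells and 745 to 2243 in neuron cells, and neuron markers 5496 to 6395 in neuron cells and 289 to 478 in astrocyte cells. In neuron sEVs the neuron markers stood at 1364 to 1893 CPM and the astrocyte markers stood at 2077 to 3014. The part of these other cells in each channel result was not tested.

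Voltage-gated sodium channels start the action potential, voltage-gated potassium channels end it and set its rate, and calcium channels turn it into calcium entry and transmitter release. Inward rectifiers and leak channels hold the resting potential, and in astrocytes they take up the potassium that active neurons give off. HCN channels carry an inward current on hyperpolarization, and microglia use a small set of potassium channels in surveillance and activation.

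The pore genes were checked against their own coding sequence in GENCODE vM21 (GRCm38). A potassium-selective pore is lined by a short filter whose signature runs threonine or serine, then valine, isoleucine, leucine or threonine, then glycine, then tyrosine or phenylalanine, then glycine. It was found in 40 of 40 voltage-gated potassium pores, 15 of 15 inward rectifiers, 14 of 14 2-pore and 8 of 8 calcium- or sodium-activated genes, and in 0 of the 15 potassium auxiliary genes, 0 of the 14 sodium genes, 0 of the 26 calcium genes and 1 of the 4 HCN genes. The HCN match, in Hcn4, starts at residue 905 of a coding sequence of 3.603 kb, in the C-terminal tail and not the pore, and is a match of letters only. Among the 14 2-pore genes 11 hold at least 2 copies. The charged repeat of a voltage sensor (3 arginines, each at the third residue after the last, then an arginine or lysine, with no charged residue between) was found in 29 of the 40 voltage-gated potassium pores, 9 of 10 sodium pores, 10 of 10 calcium pores and 4 of 4 HCN genes, and in none of the inward rectifiers, leak channels, calcium- or sodium-activated channels or auxiliary subunits. The search is by these residues only, so a gene without a match is not thereby shown to lack a sensor. The stretches below are 45 bases of coding exon around the filter, 5′ to 3′ on the gene's own strand, with the filter's codons in capitals. They are shown because the potassium results turn in part on these 6 genes. The first 2 had higher values in neuron sEVs than in neuron cells and the last 4 lower ones, and all 6 carry the same signature.
Kcna2: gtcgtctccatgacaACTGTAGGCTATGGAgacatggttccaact
Kcnc1: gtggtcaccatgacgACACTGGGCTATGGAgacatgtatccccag
Kcnv1: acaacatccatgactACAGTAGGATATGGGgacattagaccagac
Kcnd2: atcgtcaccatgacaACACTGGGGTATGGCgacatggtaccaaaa
Kcnj16: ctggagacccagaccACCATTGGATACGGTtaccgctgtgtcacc
Kcnk1: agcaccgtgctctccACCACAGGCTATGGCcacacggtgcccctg

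In cells, neurons held by far the most channel RNA and the widest repertoire. A value of at least 10 was reached by 109 to 111 of the 136 members per library in neuron cells, 80 to 88 in astrocyte cells and 31 to 34 in microglia cells. Over all genes it was reached by 17063 to 18131, 15700 to 16094 and 13494 to 13804. Listed at 0 in every library were 10 members in neuron cells, 29 in astrocyte cells and 77 in microglia cells, and 5 members were at 0 in all 18 libraries. The members summed to 4686 to 5240 CPM in neuron cells, 1031 to 1383 in astrocyte cells and 62.8 to 68.4 in microglia cells, ranges that do not overlap. In these bulk samples fewer cells of a type and less RNA per cell cannot be told apart.

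The classes divided this sum differently in each cell type. In neuron cells potassium genes made up 45.7 to 47.2% of the members' sum, sodium genes 24.6 to 26.8% and calcium genes 25.1 to 28.6%. In astrocyte cells potassium genes made up 81.1 to 87.6%, calcium genes 8.98 to 14.1% and sodium genes 3.39 to 5.94%. In microglia cells calcium genes, above all the beta subunit gene Cacnb3, made up 45.5 to 57.7% and potassium genes 37.3 to 49.6%.

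**Figure D1:**
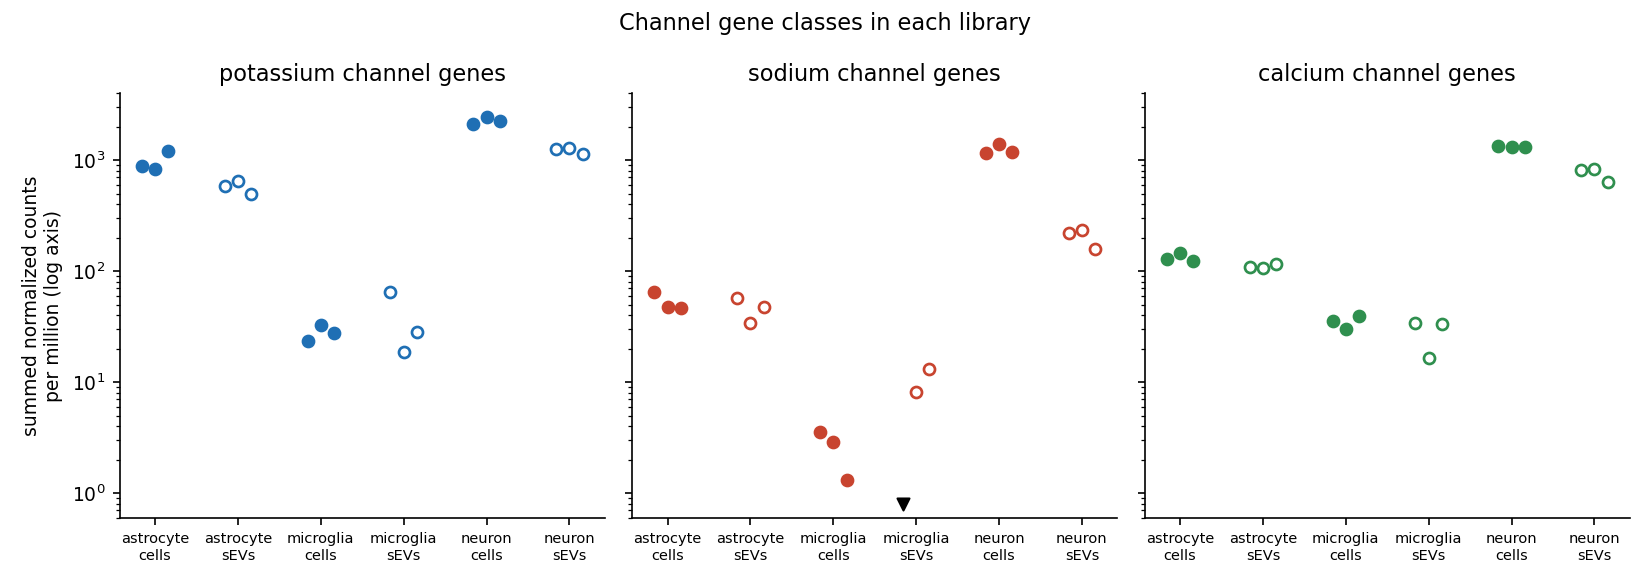
Summed CPM (log axis) of the potassium, sodium and calcium channel genes in each of the 18 libraries, filled for cells and open for sEVs. Neuron sodium values drop from 1153 to 1403 in cells to 160.0 to 237 in sEVs, a wider gap than in the potassium and calcium panels, and the black triangle marks the microglia sEV library with a sodium sum of 0.

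Levels of different genes were compared per kilobase of the longest annotated transcript. In neuron cells the highest were Cacng3, a gamma-family subunit that also serves AMPA-type glutamate receptors, with a mean of 3152 normalized counts per kb, the leak channel gene Kcnk1 with 3148, and the sodium beta subunit genes Scn2b and Scn3b with 2984 and 2810. Their libraries overlapped, from 2358 to 4231 for Cacng3 and from 2742 to 3831 for Kcnk1, so these neighbours are not separated by their spread. Cacna2d1, an alpha2delta subunit that raises the number of calcium channels at the surface, followed with 2077 per kb, and Scn2a, a main sodium pore of the axon initial segment, with 1671. In astrocyte cells the order was Kcnk1 with 2744, Kcnj16 with 1963, the calcium-binding potassium channel partner Kcnip3 with 1864, and the glial inward rectifier Kcnj10 with 991, again with overlapping libraries for the first 3. The Kcnk1 libraries ran from 1556 to 4986 per kb, and its highest is replicate 3. Microglia cells had Cacnb3 at 670, the calcium-activated channel gene Kcnn4 at 175 and Kcnk13, the leak channel of resting microglia, at 57.9 per kb.

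**Figure D2:**
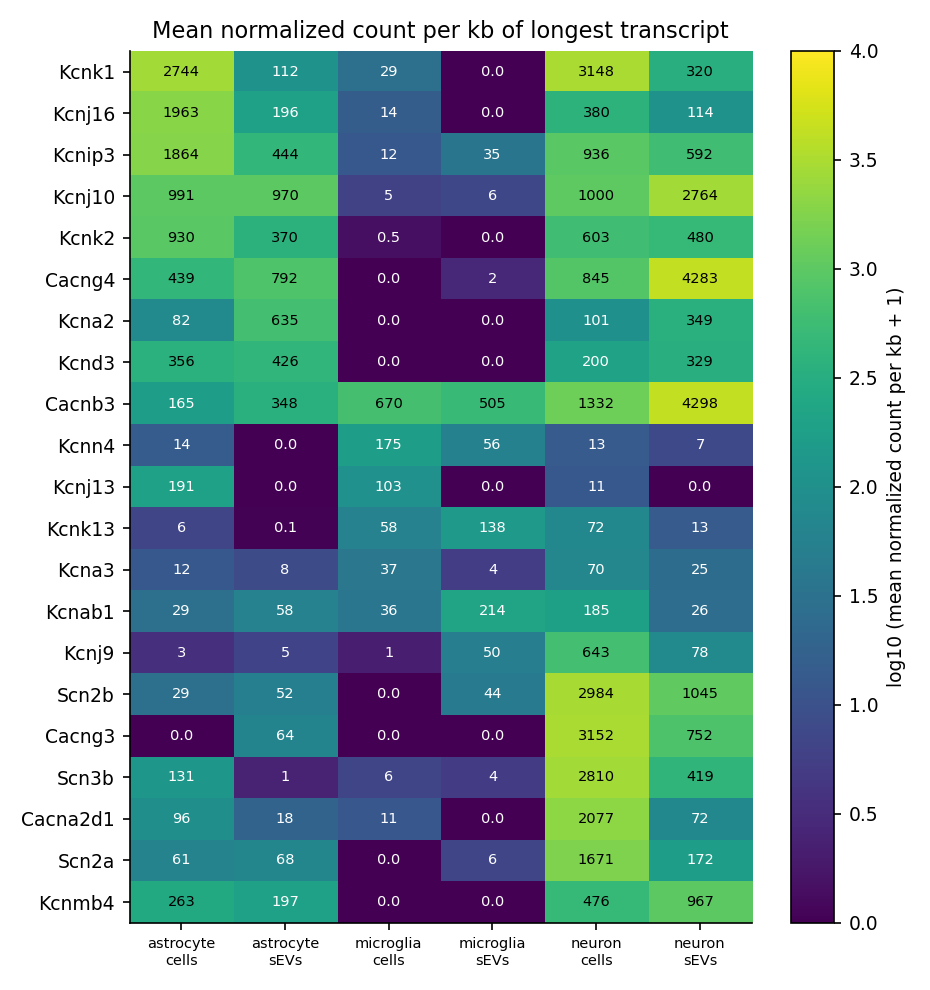
Mean normalized count per kilobase of longest transcript in the 6 groups, for genes among the 6 highest of any group, with colour on a log10 scale of the mean plus 1. Neuron sEVs are led by Cacnb3 (4298) and Cacng4 (4283), whereas neuron cells are led by Cacng3 (3152) and Kcnk1 (3148).

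Between cell types, limma was fitted to the 9 cell libraries, where 110 of the 136 members passed the filter of at least 10 in at least 3 libraries. These members passed partly through the type where they are high, and the 3 comparisons share their libraries. A gene is called at an adjusted p (limma, Benjamini-Hochberg over all genes of the fit) under 0.05. Against neuron cells, microglia cells were lower in 96 of the 110 members and higher in 3, beside 51.8% and 19.9% of all genes tested. Astrocyte cells were lower than neuron cells in 70 and higher in 4 (22.1% and 10.4% of all genes), with medians of -3.26 for 74 potassium, -4.77 for 9 sodium and -2.73 for 24 calcium genes against -0.25 for all genes. Without neuron cells replicate 1 the count of 74 calls became 49, and without replicate 3 it became 50. The 4 higher calls became 1 without any astrocyte cell replicate and 2 without any neuron cell replicate. Astrocyte cells were higher than microglia cells in 68 members and lower in 6 (43.6% and 20.8% of all genes). Quantile normalization, which forces every library to the same distribution, changed that last split to 50 and 16.

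Scn2a shows the contrast between the cell types. Its values were 13836, 16940.5 and 14004 in neuron cells, 496, 569.8 and 572 in astrocyte cells and 0 in all 3 microglia cell libraries. The groups do not overlap, and the difference between astrocyte and neuron cells was -4.77 ± 0.25 (SE, log2) at an adjusted p of 5.46e-06. Cacng3 was listed at 0 in every astrocyte and microglia cell library and at 6549.5, 11751 and 7959 in neuron cells. The leak channel gene Kcnk9 and the silent potassium subunit genes Kcns2 and Kcng1, which only work inside channels of other subunits, were also at 0 in all glial cells. Like Cacng3, they passed the filter only through the neuron cell libraries. Their calls against neurons therefore add nothing to these values.

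The 4 members higher in astrocyte than in neuron cells were Kcnj16, Kcnj13, Kcnip3 and Kcna10. Kcnj16, whose product joins with that of Kcnj10 in astrocyte membranes, had 5618, 5899 and 10278 in astrocyte cells and 1732, 1043 and 1439.9 in neuron cells (2.34 ± 0.72, adjusted p 0.0375). All astrocyte values lie above all neuron values. Kcnj10 itself had 4312, 4049 and 7709.7 in astrocyte cells and 6389, 3901 and 5933 in neuron cells. The latter 2 groups overlap, and their difference was -0.05 ± 0.38 with an adjusted p of 0.958, while astrocyte markers in neuron cells stood at 3102 to 3498 CPM.

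Microglia cells stood out with Kcnn4, at 401, 845 and 664 against 55.2, 60.5 and 32.9 in astrocyte cells and 30.9, 14.7 and 96.9 in neuron cells. No value of the other cells reaches the microglia range, with -3.64 ± 0.68 for astrocyte minus microglia cells (adjusted p 0.00142) and 4.06 ± 0.68 for microglia minus neuron cells (adjusted p 0.000630). Kcnk13 had 186, 169.5 and 179 in microglia cells and 157, 371 and 137 in neuron cells. These overlap (adjusted p 0.910), while astrocyte cells, at 49.5, 5.67 and 0, were called lower than microglia cells (adjusted p 0.00874). Kcna3, a pore of activated immune cells, had 67.7, 98.1 and 46.3 in microglia cells and 146, 80.0 and 171 in neuron cells, which also overlap.

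For neuron sEVs against neuron cells, the sodium class had the lowest median and the lowest sum relative to cells, and the potassium and calcium classes held genes on both sides. Sodium genes summed to 1153 to 1403 CPM in cells and 160.0 to 237 in sEVs, potassium genes to 2142 to 2474 and 1148 to 1282, and calcium genes to 1315 to 1342 and 644 to 832. The differences between classes were not tested. In the fit of all 18 libraries 115 of the 136 members passed the filter, and 24 were lower and 4 higher in neuron sEVs, beside 18.9% and 11.1% of all 19612 genes tested. The 4 higher genes were Kcna2, Cacnb3, Cacng4 and Cacng1. Medians of the log2 difference were -1.66 over 75 potassium, -2.78 over 11 sodium and -1.50 over 25 calcium genes, against -0.47 over all genes. Relative to the all-gene median the classes stood at -1.19, -2.31 and -1.03, and under quantile normalization, which moved that median to 0.07, at -1.13, -2.34 and -1.76. Its split of calls was 21 lower and 4 higher for potassium genes, against 18 and 1, and 6 and 4 for calcium genes, against 3 and 3. Equal library totals gave 5 and 2 for calcium genes. The count of 28 became 18 without neuron cells replicate 2.

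That fit pools the spread of all 6 groups, and many channel genes are at 0 in some glial sEV libraries and well above it in others. Fitted to the 6 neuron libraries alone, 55 members were lower and 12 higher of 110 tested, beside 33% and 21.9% of all genes. Neuron sEV and cell libraries did not overlap in 77 of the 115 members, 63 of them lower and 14 higher in sEVs, beside 34.2% and 22.7% of all genes. By class these were 41 lower and 9 higher of 75 potassium genes, 8 lower and 0 higher of 11 sodium genes, 12 lower and 4 higher of 25 calcium genes, and 2 lower and 1 higher of 4 HCN genes. In these 2 counts the members lie above the background on the lower side and below it on the higher side, whereas in the 18-library fit the lower share is close to the background.

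**Figure D3:**
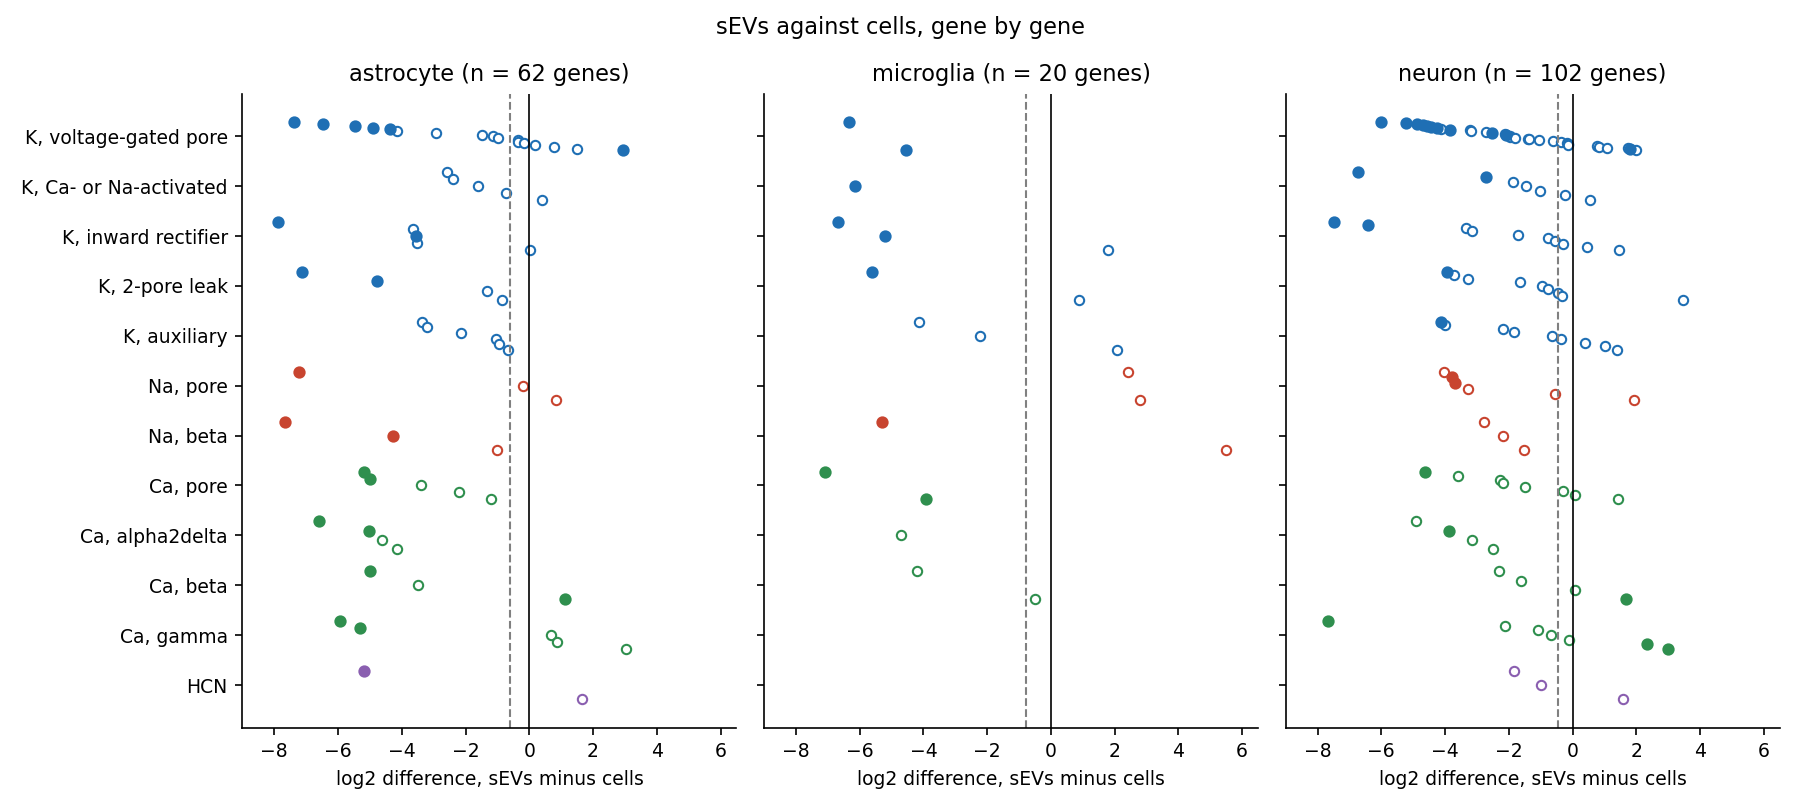
Log2 difference of sEVs minus cells for each member with a mean of at least 50 in either group (62, 20 and 102 genes), by subclass, from the fit of 18 libraries, with called genes filled and the dashed line at the median of all genes. Neuron sodium genes lie mostly left of the line, while the neuron potassium genes reach from -7.50 to 3.47 (Kcnk5) and the calcium genes from -7.68 (Cacng6) up to Cacng1, their highest.

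Among the sodium pores, Scn2a had 13836, 16940.5 and 14004 in neuron cells and 1604, 1569.5 and 1442 in neuron sEVs. The highest sEV value is far below the lowest cell value, and the difference was -3.27 ± 1.38 with an adjusted p of 0.0900 in the 18-library fit and ± 0.16 with 3.37e-06 in the neuron libraries alone. Scn3a, a pore gene most active before birth, fell from 6509, 6377 and 6599 to 591, 509 and 427 (-3.68 ± 0.57, adjusted p 0.000167). Scn1a, prominent in inhibitory interneurons, had 2767, 2593 and 2928 in cells and 536, 251 and 34.3 in sEVs, which do not overlap, with an adjusted p of 0.145 in the larger fit and 0.00452 in the smaller. Scn8a, the pore of mature axon initial segments and nodes, had 2486, 1853 and 3191 in cells and 1383, 1683 and 2055 in sEVs. These overlap, with a difference of -0.54 ± 1.15 (adjusted p 0.796). Scn9a and Scn7a were also called lower, from 338, 52.6 and 188 in cells to 50.5, 0 and 24.9 in sEVs for Scn9a (adjusted p 0.0142, and 0.0627 in the neuron libraries alone) and from 36.3, 26.8 and 61.7 to 0 in all 3 for Scn7a (adjusted p 0.00606).

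Sodium beta subunits, which anchor the pores and shape their gating, lay lower too. Scn3b had 11270.0, 13617 and 10094 in neuron cells and 2042, 2023 and 1148 in sEVs. Scn2b had 9786, 19383 and 12509 against 5027, 6631 and 2944. Neither overlaps between cells and sEVs. Their adjusted p-values were 0.165 and 0.666 in the 18-library fit and 5.93e-05 and 0.00577 in the neuron libraries alone.

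Of the 4 alpha2delta genes of the calcium class 3 stood apart between cells and sEVs. Cacna2d1 had 14851, 16478 and 14999 in neuron cells and 545, 707 and 347 in sEVs (-4.91 ± 1.79, adjusted p 0.0509, and 4.81e-06 in the neuron libraries alone). Cacna2d3 had 4065, 2499 and 3647 against 750.1, 558 and 507. Both are far apart between the groups, and Cacna2d2 fell from 363, 287 and 287 to 17.5, 24.1 and 20.1 (-3.86 ± 0.84, adjusted p 0.00259). Cacna2d4 overlapped, at 52.5, 298 and 93.6 in cells and 0, 64.1 and 31.4 in sEVs (adjusted p 0.155).

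The calcium pores were mixed. Cacna1b, the N-type pore of presynaptic terminals, had 5775, 4168 and 5479 in neuron cells and 1442, 1285 and 738 in sEVs. Cacna1e, the R-type pore, had 4175, 2647 and 4476 against 1202, 832 and 435. Cacna1a, the P/Q-type pore of many synapses, fell from 981, 467 and 871 to 51.4, 50.1 and 9.07 (-4.62 ± 1.50, adjusted p 0.0299), a call lost without any of the 3 neuron cell replicates or neuron sEV replicate 3 (adjusted p 0.0506 to 0.116). The first 2 do not overlap between the groups either, with adjusted p-values of 0.339 and 0.115 in the larger fit and 0.000329 and 0.00140 in the smaller. Cacna1c, the L-type pore, had 1045, 701 and 1218 against 982, 903 and 526, which overlap. Cacna1i, a low-threshold T-type pore, was on the other side with 1021, 775 and 1304 in cells and 3038, 3104 and 2168 in sEVs (1.44 ± 0.90, adjusted p 0.264, and 0.00189 in the neuron libraries alone).

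Calcium channel auxiliary genes were called in both directions. Cacng4, a gamma-family subunit and AMPA receptor partner, had 2898, 2963 and 3012 in neuron cells and 14782, 15772 and 14416 in neuron sEVs. The groups are far apart and tight within themselves, and the gene rose by 2.34 ± 0.84 at an adjusted p of 0.0474. That call was lost when any neuron library was left out (adjusted p 0.0988 to 0.110), while the neuron libraries alone gave 7.29e-06. Cacnb3, the beta subunit that brings pores to the membrane, rose from 3722, 3660.2 and 3541 to 12947, 13563 and 8743 (1.66 ± 0.38, adjusted p 0.00367). Cacng3 lay lower in sEVs, at 1856, 3152 and 1256 against 6549.5, 11751 and 7959, and Cacng2, the founding AMPA receptor partner, overlapped at 2362, 1579.7 and 999 against 2612, 3342 and 1729.8. Cacng6 was listed at 0 in all 3 neuron sEV libraries after 161, 176 and 295 in cells (adjusted p 7.14e-05), and Cacng1 had 44.9, 91.8 and 30.4 in sEVs after 0, 15.0 and 15.5 (adjusted p 0.0113, and 0.0691 in the neuron libraries alone).

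Potassium pores spread over the whole range. Among members with a mean of at least 50 in neuron cells, a choice that favours falls, 32 voltage-gated potassium pores ran from -6.02 to 1.99 with a median of -1.97, and 21 of them lay below -1. The 10 inward rectifiers had a median of -1.24, the 8 leak channels -1.31 and the 9 auxiliary genes -0.65, with ranges that overlap throughout. For comparison the 6 sodium pores had a median of -3.48 and the 4 alpha2delta genes of -3.51.

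On the high side, Kcna2, a delayed rectifier of axons, rose from 917, 1139 and 1445 in neuron cells to 3857, 4379 and 3885 in sEVs (1.81 ± 0.43, adjusted p 0.00481). The lowest sEV value is more than the highest cell value by a wide margin. Kcnc1, whose channels let neurons fire fast, had 1097, 659.9 and 1084 in cells and 3431, 2531 and 3447 in sEVs. The groups do not overlap, and its adjusted p of 0.234 in the larger fit became 0.000738 in the neuron libraries alone. Kcnq3, a subunit gene of the M-current that limits repetitive firing, had 1069, 2600.3 and 1323 in cells and 1137, 2454 and 913 in sEVs, which overlap (-0.18 ± 1.18, adjusted p 0.956).

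Kcnj10 also had higher values in neuron sEVs, at 10926, 15189 and 18715 after 6389, 3901 and 5933 in neuron cells (1.46 ± 1.07, adjusted p 0.349, and 0.00178 in the neuron libraries alone). Kcnj16 went the other way, with 438, 475 and 354 after 1732, 1043 and 1439.9 (adjusted p 0.103, and 0.00135 in the neuron libraries alone). Both pairs of groups are free of overlap, and the 2 products can form channels together. Astrocyte markers stood at 3102 to 3498 CPM in neuron cells and 2077 to 3014 in neuron sEVs.

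On the low side, Kcnv1, a silent subunit of cortical neurons, fell from 4023, 9212 and 3820.3 to 303, 190.3 and 93.9 (-4.88 ± 0.69, adjusted p 6.61e-05). Kcnt2, a sodium-activated channel gene, fell from 1564, 2476 and 1196 to 0.894, 23.9 and 78.7 (-6.74 ± 1.17, adjusted p 0.000417), and Kcnd1, of the A-type family, from 502, 278 and 573 to 0, 25.5 and 10.1 (adjusted p 0.000131). Of the inward rectifiers, Kcnj4 fell from 333, 323 and 545 to 2.21, 3.50 and 5.69 (-6.41 ± 0.73, adjusted p 8.27e-06), and Kcnj6, a channel opened by G proteins, from 291, 174 and 226 to 0, 0 and 0.981 (adjusted p 1.22e-08).

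Several abundant potassium genes lay lower without a call in the 18-library fit. Kcnk1 had 6128, 8561 and 6417 in neuron cells and 595, 730.2 and 817 in sEVs. Kcnd2, the main A-type pore of dendrites, had 3596, 3302 and 3222 against 461, 482 and 228. Their groups stand well apart, with adjusted p-values of 0.137 and 0.147 there and 1.08e-05 and 8.73e-05 in the neuron libraries alone. Kcnh7, an ether-a-go-go-related pore, fell from 5896, 8733 and 5473 to 1594, 1415 and 646 (-2.53 ± 0.87, adjusted p 0.0397), a call lost when any neuron library was left out. Smaller gaps were seen for Kcnma1, the large-conductance calcium-activated channel (4499, 5438 and 5002 against 2046, 1883 and 632), and for the silent subunit gene Kcnf1 (4147, 5036 and 4286 against 2630.4, 2457 and 1566). Both are free of overlap and had adjusted p-values of 0.166 and 0.727 in the larger fit and 0.00549 and 0.00513 in the neuron libraries alone.

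Of the HCN genes, Hcn4, the slow member, had 263, 182 and 489 in neuron cells and 1178, 819.9 and 646 in sEVs, higher without overlap. Hcn2 reached at most 33.5 in any library, and no HCN gene was called among the 4 tested. In the neuron libraries alone 1 was called lower and 1 higher.

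**Figure D4:**
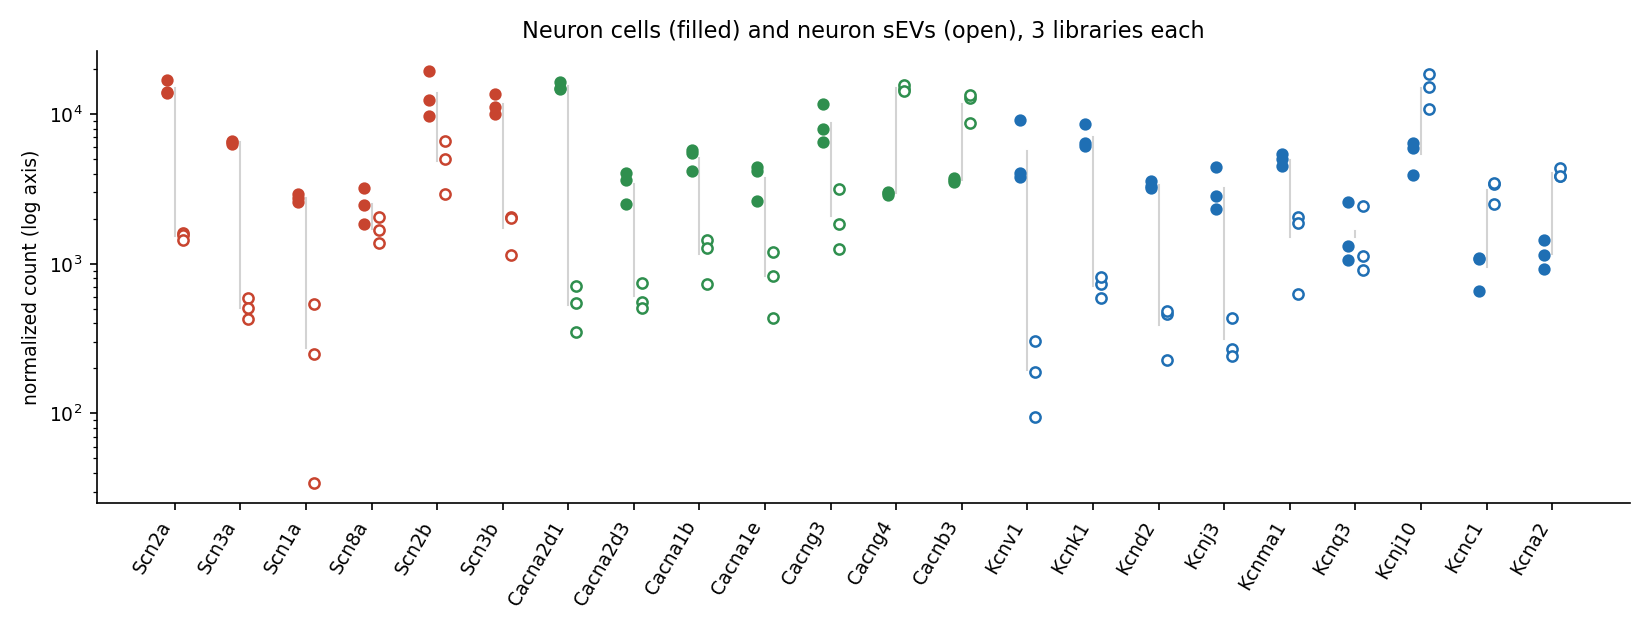
Normalized counts (log axis) of named members in the 3 neuron cell libraries (filled) and the 3 neuron sEV libraries (open), with a grey line between the means. Sodium genes are red, calcium genes green and potassium genes blue. Scn2a drops from at least 13836 to at most 1604, whereas Cacng4 climbs from at most 3012 to at least 14416.

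Astrocyte sEVs carried a narrower set than their cells, with 31 to 54 members at 10 or more per library against 80 to 88. Over all genes the number at 10 or more was also lower, at 11470 to 13962 in sEVs and 15700 to 16094 in cells. Whether the members narrowed more than other genes was not tested. Of the 115 members tested 29 were lower and 2 higher than in astrocyte cells, beside 18.6% and 8% of all genes. Under quantile normalization the split was 18 lower and 4 higher, and that of potassium genes 11 and 3. In the main fit potassium genes gave 18 lower and 1 higher of 75, sodium genes 3 and 0 of 11, calcium genes 7 and 1 of 25, and HCN genes 1 and 0 of 4. The medians were -1.93 for potassium, -0.49 for sodium and -2.57 for calcium genes against -0.60 for all genes. Among members with an astrocyte cell mean of at least 50, a choice that favours falls, 6 sodium genes had a median of -2.66. There 36 potassium genes had -1.88 and 16 calcium genes -4.38, against -0.53 over 12971 genes at the same level. Under quantile normalization the medians over tested members were 0.51 for sodium, -0.34 for potassium and -0.46 for calcium genes, with 0.15 for all genes. As sums the sodium class overlapped, at 46.9 to 64.9 CPM in cells and 34.0 to 57.4 in sEVs, while potassium stood at 837 to 1211 in cells and 494 to 644 in sEVs. Astrocyte markers stood at 24760 to 26276 CPM in cells and 8648 to 18062 in sEVs. Oligodendrocyte-lineage markers stood at 5289 to 10980 and 1950 to 4135, and their part in these results was not tested.

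Kcna2 rose here as well, from 974, 697 and 1168 in astrocyte cells to 7523, 9342 and 5203 in sEVs (2.95 ± 0.43, adjusted p 0.000134), the largest increase among the members called in this comparison. Cacnb3 rose from 592, 482 and 278 to 772, 856 and 1224 (1.11 ± 0.38, adjusted p 0.0424). That call was lost without astrocyte cells replicate 2 or 3 or any astrocyte sEV replicate (adjusted p 0.0507 to 0.179), and in the astrocyte libraries alone (0.0956). Cacng4 had 1203, 1832 and 1569 in cells and 2828, 2755 and 2736 in sEVs, free of overlap (0.87 ± 0.84, adjusted p 0.500, and 0.0240 in the astrocyte libraries alone). Kcnc1 likewise had 507, 404 and 690.1 against 1582, 1399 and 1422 (adjusted p 0.328, and 0.0120 alone).

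The 2 glial inward rectifiers differed here too. Kcnj10 had 4312, 4049 and 7709.7 in astrocyte cells and 4704, 6525 and 4500.0 in sEVs, which overlap (0.01 ± 1.07, adjusted p 1). Kcnj16 fell from 5618, 5899 and 10278 to 1149, 792 and 234 (-3.54 ± 0.75, adjusted p 0.00272). Kcnk1 fell from 3781, 3477 and 11144 to 0, 673 and 76.3 (adjusted p 0.00364, and 0.0511 in the astrocyte libraries alone). Kcnk2, a leak channel opened by stretch and lipids, had 2570.0, 2452 and 4943 against 936, 1986 and 1042, lower without overlap (adjusted p 0.159, and 0.0464 in the astrocyte libraries alone).

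Sodium genes of astrocytes included both called and overlapping members. Scn3a, at 311, 63.8 and 159.6 in cells, was listed at 0 in all 3 sEV libraries (adjusted p 4.39e-07), and Scn3b fell from 662, 471 and 501 to 0, 0 and 17.8 (adjusted p 0.000990). Scn2a had 496, 569.8 and 572 in cells and 315, 276 and 1233 in sEVs (-0.20 ± 1.38, adjusted p 0.992). Scn8a had 763, 487 and 346 against 2018, 791 and 455. Both overlap between cells and sEVs.

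In the calcium class of astrocytes Cacna2d1 fell from 587, 849 and 708 to 391, 0 and 0 (adjusted p 0.0131, lost without astrocyte sEV replicate 2 or 3 at 0.0589 and 0.0565, and 0.0811 in the astrocyte libraries alone). Cacna2d2 and Cacng6 also fell, the latter to 0 in all 3 sEV libraries. Among potassium genes Kcnj13, at 259, 309 and 158 in cells, and Kcnd1, at 126, 115 and 309, were both listed at 0 in every astrocyte sEV library (adjusted p 3.33e-05 and 2.91e-05). Kcnd3, an A-type pore, overlapped at 2127, 1893 and 3629.8 in cells and 2987, 4652 and 1526 in sEVs.

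Microglia sEVs held 5 to 17 members at 10 or more, against 31 to 34 in microglia cells, and 108 of the 136 were at 0 in all 3 libraries. Over all genes the number at 10 or more was also lower, at 7840 to 10059 in sEVs and 13494 to 13804 in cells. Of the 115 members tested 16 were lower and 0 higher than in microglia cells, beside 21.2% and 5.08% of all genes. Both shares lie below the background, but a member at 0 in the cells cannot be called lower. Of the 136 members 77 were at 0 in every microglia cell library. Among the 15 with a microglia cell mean of at least 50, a choice that favours falls, 12 lay below -3 and 2 above 0. Their median was -4.71, beside -1.19 over 11164 genes at the same level. As sums, by contrast, all members overlapped, at 62.8 to 68.4 CPM in microglia cells and 43.4 to 99.8 in microglia sEVs. So did potassium genes (23.4 to 32.9 in cells and 18.8 to 65.4 in sEVs), calcium genes (30.1 to 39.5 and 16.4 to 34.4) and sodium genes (1.32 to 3.55 and 0 to 13.3). No member passed the threshold upwards in limma, and 1 did at an unadjusted p under 0.05. Under quantile normalization the split was 5 lower and 22 higher, and all 22 were at 0 in the 3 microglia cell libraries, 15 of them in all 6. The count of 16 became 10 without microglia cells replicate 3. In the microglia libraries alone it became 7, where only 22 members passed the filter.

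Cacnb3 was the main channel gene of both fractions, with 1923, 1391 and 2181 in microglia cells and 1788, 696 and 1663 in sEVs. These overlap (-0.50 ± 0.38, adjusted p 0.390). Kcnk13 had 186, 169.5 and 179 in cells and 841, 151 and 282 in sEVs, and Kcnab1, a cytoplasmic potassium channel subunit, 195, 177 and 108 in cells and 2074, 358 and 383 in sEVs. Kcnab1 is free of overlap and Kcnk13 is not, and neither was called (adjusted p 0.511 and 0.788).

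Kcnn4 was present in only 1 of the 3 microglia sEV libraries, at 616, 0 and 0 after 401, 845 and 664 in cells. The groups overlap, and its adjusted p of 0.0381 was lost in 9 of the alternatives run, among them leaving out any microglia cell replicate or microglia sEV replicate 2 or 3 (0.0707 to 0.140). Cacna1d, an L-type pore, at 139.5, 252 and 69.7 in cells, and Kcnh7, at 64.3, 49.4 and 154, were both listed at 0 in all 3 microglia sEV libraries (adjusted p 0.00469 and 7.33e-05). Scn1a, at 0, 0 and 334, and Scn2b, at 0, 236 and 373, appeared in microglia sEVs but in no microglia cell library, and neither was called (adjusted p 0.344 and 0.0763). Neuron markers summed to 1.72 to 4.62 CPM in microglia cells and to 1.96, 47.1 and 37.7 CPM in microglia sEV replicates 1, 2 and 3. Oligodendrocyte-lineage markers stood at 0.552, 19.2 and 16.5 CPM in the same 3 libraries, and the part of either in these values was not tested.

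Astrocyte and neuron cultures share no library, so their differences can be set side by side. Of 58 members with a cell mean of at least 50 in both, 41 lay below 0 in both, 7 above 0 in both, 3 above only in astrocytes and 7 above only in neurons. These are 70.7% below and 12.1% above in both, beside 49.9% and 30.9% of the 12434 genes of the whole table at the same levels. Over the members, which share kit, pseudocount and filter, Pearson's r was 0.73 and Spearman's rho 0.71, beside 0.77 and 0.78 over those 12434 genes. Those above 0 in both included Kcna2, Kcnc1, Cacnb3, Cacng4, Kcnd3 and Kcnj10. Of single calls, Kcna2 and Cacnb3 were higher in both cultures and 11 members were lower in both. These 11 are 37.9% of the 29 lower in astrocytes and 45.8% of the 24 lower in neurons, against 53.9% and 53.1% for all genes. Kcnd1 and Kcnj13 were called lower in microglia as well, and 7 of the other 9 were at 0 in every microglia cell library. Each culture also held marker RNA of the other type, with neuron markers at 289 to 478 CPM in astrocyte cells and astrocyte markers at 3102 to 3498 CPM in neuron cells, and the part of this was not tested.

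**Figure D5:**
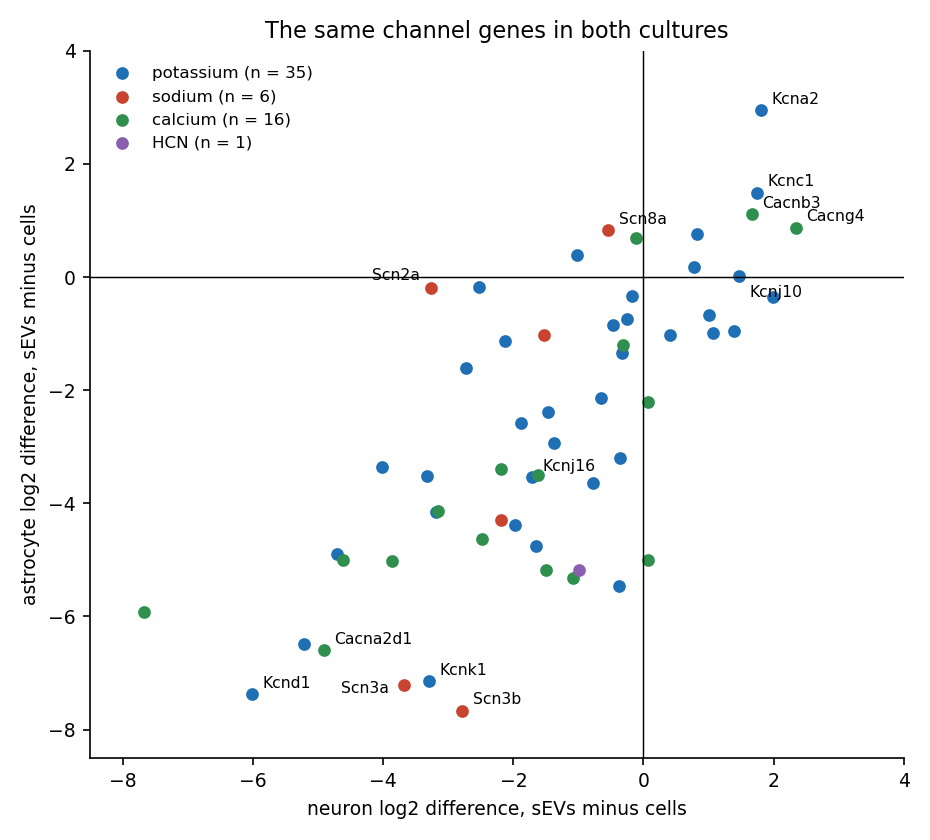
Log2 difference of sEVs minus cells in neurons (x axis) and astrocytes (y axis) for the 58 members with a cell mean of at least 50 in both, coloured by class. Kcna2, Kcnc1, Cacnb3 and Cacng4 lie in the upper right corner, 41 genes in the lower left, and Scn2a lies at -3.27 in neurons and -0.20 in astrocytes.

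Whether the sEV difference varied between the 3 cell types was asked with an F test, which called 18 of the 115 members, beside 21.6% of all genes, a share below the background. By class these were 14 of 75 potassium, 1 of 11 sodium, 3 of 25 calcium and 0 of 4 HCN genes. The smallest p-values belonged to Kcnj6, Kcna10, Scn3a, Kcns3 and Kcnj4. Kcns3, a silent subunit gene, had 20.6, 37.4 and 102 in astrocyte cells and 0 in every astrocyte sEV library, but 184, 197 and 259.6 in neuron cells and 197, 176 and 123 in neuron sEVs, which overlap. Kcna10 was listed at 0 in all neuron and microglia libraries, so its call rests on values of 13.7 to 27.8 in astrocyte cells. It passed the filter only through those astrocyte cell libraries. Scn2a was not called by the F test (adjusted p 0.114).

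Between sEVs of different types 90 of the 136 members passed the filter in the 9 sEV libraries. Microglia sEVs were lower than neuron sEVs in 81 and higher in 1, Kcnk13, beside 45.3% and 13.6% of all genes. The Kcnk13 call was lost with no filter, with a replicate block, without any microglia sEV replicate and without neuron sEV replicate 1. Astrocyte sEVs were lower than neuron sEVs in 40 and higher in 0, beside 11.8% and 3.13%. That count became 4 without any 1 of the 3 neuron sEV replicates, which also lowered the members tested from 90 to 69 or 70. Some members thus passed the filter only through the 3 neuron sEV libraries. No member was higher in astrocyte sEVs at an unadjusted p under 0.05. Astrocyte sEVs were higher than microglia sEVs in 24 and lower in 1 (26.6% and 12.9% of all genes), close to the background on the higher side, or in 15 and 3 under quantile normalization. Kcna2 led the astrocyte sEV side, at 5203 to 9342 against 0 in all microglia sEV libraries (adjusted p 2.15e-06), and it was not called against neuron sEVs (0.83 ± 0.46, adjusted p 0.311). Cacna1i was at 0 in every astrocyte and microglia sEV library and at 2168 to 3104 in neuron sEVs. It passed the filter only through the neuron sEV libraries, where it is high, so its calls against glial sEVs add nothing to these values.

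Genes whose products bind, anchor or regulate these channels were taken from a list of 35, of which 34 were in the table and tested. In neuron sEVs 2 were higher and 5 lower, in astrocyte sEVs 4 and 6, and in microglia sEVs 4 and 1, with medians of -0.86, -1.07 and -0.47. Over all genes tested the shares higher and lower were 11.1% and 18.9% in neurons, 8% and 18.6% in astrocytes and 5.08% and 21.2% in microglia. Cntnap1, which holds myelin to the axon beside the node, fell from 328, 398 and 465 in neuron cells to 3.37, 0 and 9.53 in neuron sEVs (adjusted p 2.67e-06). Rest, the repressor of many neuronal channel genes, rose from 368, 293 and 183 to 2126, 2332 and 2830.0 (3.15 ± 0.33, adjusted p 4.10e-06) and in astrocytes from 1131, 959.7 and 1038 to 4325, 8023 and 4453 (2.37 ± 0.33, adjusted p 9.73e-05). Calm2, a calmodulin gene and so a calcium sensor of many channels, fell in neuron sEVs (-1.01 ± 0.18, adjusted p 0.000495) and rose in microglia sEVs (0.85 ± 0.18, adjusted p 0.00251), from 48886, 46093 and 49137 to 82229.9, 93087 and 84929.

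Transcript length was set beside the neuron differences, because channel pores are long genes. Over 100 members with a neuron cell mean of at least 50 Spearman's rho was 0.04 with the longest annotated transcript and -0.09 with the coding length. Within the 66 potassium genes these were 0.13 and -0.09, and over 14391 genes of the same level 0.03 with transcript length. In astrocytes the 36 potassium genes gave 0.51 with transcript length, where Kcna2, with a longest transcript of 11.6 kb, has the highest difference. These are descriptions across genes, which are not replicates.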

How the data were processed

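Poly(A) RNA was measured in 18 libraries, 3 in each of 6 groups. Per the labels' protocols, RNA was taken with column kits including DNase treatment, cDNA was primed with poly-dT in a low-input kit, and libraries were made by tagmentation, a method that does not mark strand, so overlapping genes can share reads. Per the submitters' processing notes, Salmon 1.8.0, DESeq2 and GRCm39 were used. The deposited values are a signal: gene counts normalized by the authors, which are not whole numbers. How they were scaled is not given in the sources used here, and no count model was fitted. No per-sample column was left unused.

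Values were set to log2(value + 1). A gene entered a fit if 3 or more of its libraries had a value of 10 or more, and was tested with limma 3.58.1 in R 4.3.3 (empirical Bayes, Benjamini-Hochberg adjustment over all genes of the fit, threshold 0.05). Fold changes are on this scale, which understates the change of low genes, and a value against a library at 0 rests on the pseudocount. sEVs against cells and the F test used all 18 libraries. Pairs of cell types used the 9 cell or 9 sEV libraries. The fitting was tested on simulated data. Lengths and sequences came from GENCODE vM21 (GRCm38), and no coordinates are given because the builds differ.

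The members, lists and named genes were chosen with earlier results of these data known. Named were, per comparison of sEVs with cells, the members with the highest cell mean of at least 50 (8 potassium, 4 sodium, 6 calcium, 2 HCN), the 3 largest increases and 5 largest decreases among called members, the 5 smallest p-values in each direction of a pair and in the F test, 23 members always named, and 4 partner genes per comparison. Others, such as Kcnc1, Hcn4, Kcnk5 and Cacna1i in neuron sEVs, were chosen after their values were seen. Some members that this rule names are not reported here. Alternatives were a pseudocount of 10, no filter, quantile normalization, equal library totals, the libraries of one cell type alone, a replicate block and leaving out each replicate.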

Additional observations from a re-analysis of the deposited data

Results flagged for a closer look

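In 18 members the sEV difference varied between astrocytes, microglia and neurons by the F test of limma over all 18 libraries (adjusted p under 0.05, over all genes tested). Adjusted p-values of potassium pores were 1.153e-05 for Kcna10, 0.0001907 for Kcns3, 0.001792 for Kcng2, 0.002296 for Kcnv1, 0.006353 for Kcnh7, 0.007919 for Kcna2, 0.01606 for Kcna1 and 0.03113 for Kcnh5. Among inward rectifiers they were 6.054e-07 for Kcnj6, 0.001104 for Kcnj4 and 0.03778 for Kcnj13. The leak channel gene Kcnk4 had 0.001104, the sodium-activated channel gene Kcnt2 0.0224 and the auxiliary gene Kcnip4 0.04633. The sodium pore gene Scn3a had 4.544e-05. In the calcium class Cacna2d2 had 0.01475, Cacnb3 0.02116 and Cacng6 0.02828. Several of these are at or near 0 in all libraries of 1 or 2 cell types, as Kcna10 is outside astrocyte cells, so that there the difference can only be near 0.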

How the results depend on the processing

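Among single genes with their comparison, 1141 values under the alternatives kept the side of the threshold, 91 lost the call and 65 gained one. Of values called in the main fit or the alternative, 0 reversed direction. Direction was not compared where neither gave a call. The pseudocount of 10 gave 10 called members in microglia sEVs against cells (16 in the main fit) and 53 in neurons (28). Using only the libraries of the cell type gave 7 of 22 members tested in microglia and 67 of 110 in neurons, against 115 tested in the main fit. Quantile normalization gave 27 in microglia, 54 for microglia against neuron sEVs (82) and 34 in the F test (18), and a potassium median in neurons of -1.06 (-1.66). Equal totals gave a calcium median of -1.80 (-1.50). The cause was not tested. Leaving out 1 replicate gave 10 to 15 calls in microglia sEVs against cells, 18 to 24 in neurons, 25 to 38 in astrocytes, 49 to 66 for astrocyte against neuron cells, 66 to 69 for astrocyte against microglia cells, 88 to 98 for microglia against neuron cells, 22 to 33 for astrocyte against microglia sEVs, 4 to 45 for astrocyte against neuron sEVs, 55 to 83 for microglia against neuron sEVs and 13 to 26 in the F test. The medians in neurons then ran from -1.73 to -1.23 for potassium, -3.19 to -2.51 for sodium and -1.89 to -1.24 for calcium genes. With a replicate block the counts were 25 in neurons, 27 in astrocytes, 14 in microglia and 12 in the F test, 73, 68 and 99 for the pairs of cells and 25, 32 and 80 for the pairs of sEVs. Deviations of same-numbered cell and sEV libraries correlated at -0.0396 to 0.0445. With 3 libraries per group this check cannot show whether the same number means the same culture. The main fits did not use the numbers as pairs, so any such pairing is left out of their p-values. In neurons each sEV library correlated best with its own number (0.00923, 0.0425 and 0.0445). Astrocyte sEV replicate 2 correlated best with cells replicate 3 (0.0549, own number -0.0396) and replicate 3 with cells replicate 2 (0.00864, own 0.00586). Microglia sEV replicate 2 correlated best with cells replicate 1 (0.0128, own 0.00530). The remaining astrocyte and microglia sEV libraries correlated best with their own number, and no pairing is read from these small values. With 3 libraries per group and many glial sEV values at 0, differences of low members are weakly resolved.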
